A study of Mus musculus with 24 samples.

Results

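The genes described here encode enzymes that write or erase methyl groups on lysine 9 of histone H3. The members were chosen as a list of 10 genes by name: the methyltransferase genes Ehmt1, Ehmt2, Suv39h1, Suv39h2, Setdb1 and Setdb2, and the demethylase genes Kdm3a, Kdm4a, Kdm4b and Kdm4c. They are 10 of the 21755 protein-coding genes in the annotation, and 10 of the 10777 that had an H3K9ac peak at a promoter in every library. H3K9ac, the acetylation of the same lysine, was measured in 4T1 spheroids (4T1 is a breast carcinoma line of the mouse) by ChIPmentation, in which the immunoprecipitated chromatin is tagged on the beads by a transposase. The series lists 24 samples, of which the 12 H3K9ac libraries have peak lists, and the 12 inputs were not analysed here.

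Spheroids were collected on day 5 in 4 groups of 3 libraries. The scramble group carried a non-targeting guide RNA and grew with 75 µM palmitate. The CPT1a knockout group lacked the enzyme that passes long-chain fatty acids into mitochondria, with 75 µM palmitate. The third group was the CPT1a knockout given 5 mM acetate, and the labels do not say whether its medium also held palmitate, whereas a legend of the study describes spheroids with and without acetate as grown with it. The KAT2a knockout group lacked an acetyltransferase that acts on H3, with 75 µM palmitate. By the study's methods, knockouts were stable lines selected with puromycin, made from cells with a doxycycline-inducible Cas9. The labels do not say which guide each library carried. The study reports a western blot check of the knockouts. A promoter peak list does not show whether either protein was lost, so the genotypes were taken from the labels and could not be checked here. Nothing in the labels says that replicates came from separate cultures, so the p-values measure the spread between these libraries, which may be technical.

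Lysine 9 of H3 carries either an acetyl group, found at active promoters, or methyl groups, and not both at once. EHMT1 (GLP) and EHMT2 (G9a) form a heterodimer that makes mono- and dimethylated lysine 9 in euchromatin. SUV39H1 and SUV39H2 trimethylate it in pericentromeric heterochromatin, SETDB1 does so at retroelements, and SETDB2 is a relative of SETDB1. KDM3A removes mono- and dimethyl groups, and KDM4A, KDM4B and KDM4C remove trimethyl groups, both with oxygen and 2-oxoglutarate. The data below concern acetylation at the promoters of these genes, not the amount or activity of the enzymes. A lower value in spheroids can come from fewer cells with the mark or from less of it per cell, which cannot be told apart.

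The lists held 16212 to 34370 peaks, and the calling depth, the mean fragment coverage of the genome that was recovered from the deposited values, was lowest for CPT1a knockout replicate 3 (0.554) and highest for scramble replicate 1 (2.52). The 3 scramble libraries stood apart from the other 9 before any gene was considered. Their peaks were more numerous (29176 to 34370, against 16212 to 24639) and narrower at the median, and the median width summed over the peaks of a promoter was 2743 to 3411 bp, against 1658 to 2566 bp. Every difference between scramble and another group therefore moved with these properties of the libraries, and their part in the results was not tested. Of the markers of epithelium, Epcam, Krt8, Krt18, Cdh1 and Cldn7 had a promoter peak in all 12 libraries and Krt14 in 3. None of the 5 leukocyte genes, the 3 endothelial genes or the fibroblast genes Dcn and Lum had one in any library, while Pdgfra had one in all 12. Of the 5 ranked epithelial genes, only Epcam and Cldn7 passed an adjusted p of 0.05 for scramble against the other 3 groups. The share of all genes that passed was 11.6%. Both ranked lower in scramble (by differences of -19.5 and -7.44 percentile points of the rank defined below, limma adjusted p = 0.0125 and 0.0110). The median difference over the 5 genes was -3.52 points.

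The promoters differed in their surroundings. Ehmt1 (chromosome 2, 24789928 to 24919614, minus strand, GRCm38) and Suv39h2 (chromosome 2, 3455815 to 3475031, minus strand) had no other coding start inside the span of their strongest peaks. The same held for Suv39h1 (chromosome X, 8061171 to 8074760, minus strand), Setdb1 (chromosome 3, 95323525 to 95357202, minus strand), Kdm3a (chromosome 6, 71588972 to 71632990, minus strand), Kdm4a (chromosome 4, 118136957 to 118180043, minus strand), Kdm4b (chromosome 17, 56326062 to 56402870, plus strand) and Kdm4c (chromosome 4, 74242497 to 74405860, plus strand). Setdb2 (chromosome 14, 59402009 to 59440884, minus strand) starts 99 bp from Cab39l, which is transcribed the other way, and the peak at this shared promoter cannot be assigned to one of them. The peak span of Ehmt2 (chromosome 17, 34898469 to 34914052, plus strand) also held a start of the complement gene C2, 1429 bp away on the other strand. Kdm4c was marked at 74251936, an internal annotated start, and not at its most upstream one at 74242497.

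The stretch just before the start is printed for 4 promoters, since the results below turn on how peaks lie around it: those of Ehmt1 and Kdm4c, where scramble lists left a gap at the start, that of Suv39h1, where nearly every list did, and that of Setdb1, where the start was covered in all 12 lists. Each is the 250 bases before the RefSeq start, 5′ to 3′ on the gene's strand, from GRCm38.p6, at chr2:24919610-24919859 for Ehmt1, chrX:8074761-8075010 for Suv39h1, chr3:95357203-95357452 for Setdb1 and chr4:74251629-74251878 for Kdm4c. RefSeq promoters were matched for 9 of the 10 genes, all but Kdm4b. Capitals mark matches on either strand to GGGCGG (the GC box), CCAAT (the CCAAT box), CCGGAA (the ETS core) or CACGTG (the E-box). No match to TATAAA or TGACGTCA was found in these 4.
Ehmt1: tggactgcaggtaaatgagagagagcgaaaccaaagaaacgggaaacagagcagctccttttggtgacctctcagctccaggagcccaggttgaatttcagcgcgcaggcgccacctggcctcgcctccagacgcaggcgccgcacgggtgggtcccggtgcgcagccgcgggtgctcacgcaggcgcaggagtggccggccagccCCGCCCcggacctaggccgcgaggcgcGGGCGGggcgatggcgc
Suv39h1: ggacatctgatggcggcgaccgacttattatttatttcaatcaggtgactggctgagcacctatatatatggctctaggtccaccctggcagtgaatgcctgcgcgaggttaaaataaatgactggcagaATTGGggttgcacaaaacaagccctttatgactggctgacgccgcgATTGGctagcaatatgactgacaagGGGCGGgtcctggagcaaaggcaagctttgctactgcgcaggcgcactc
Setdb1: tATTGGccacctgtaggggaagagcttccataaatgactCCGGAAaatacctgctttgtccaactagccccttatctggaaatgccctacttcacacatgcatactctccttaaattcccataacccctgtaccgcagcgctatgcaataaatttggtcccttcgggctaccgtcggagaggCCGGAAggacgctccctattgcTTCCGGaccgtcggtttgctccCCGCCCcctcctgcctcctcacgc
Kdm4c: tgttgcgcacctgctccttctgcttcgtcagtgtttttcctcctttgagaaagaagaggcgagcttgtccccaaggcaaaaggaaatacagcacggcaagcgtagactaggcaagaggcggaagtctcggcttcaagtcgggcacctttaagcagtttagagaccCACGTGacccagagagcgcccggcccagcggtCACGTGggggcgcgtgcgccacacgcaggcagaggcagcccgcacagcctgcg

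The GC box was found in the promoters of 6 genes (Ehmt1, Ehmt2, Suv39h1, Suv39h2, Setdb1 and Kdm3a), beside 32.7% of 32851 RefSeq promoters of the same length. The CCAAT box was found in 5 and in 33.8% of all, the ETS core in 3 and in 12.03% of all, and the E-box in 2 (Ehmt2 and Kdm4c) and in 6.02% of all. TATAAA was found in 0 of the 9 genes and in 12.4% of all, and TGACGTCA in Suv39h2 and in 1.55% of all. A gene was counted if any of its RefSeq promoters held a match, and some of the genes have several. Each share is over single promoters, with or without a peak, so counts and shares are not like for like. These are matches of letters and no binding was measured. The printed stretches held 26 CpG dinucleotides in Ehmt1, 11 in Suv39h1, 13 in Setdb1 and 19 in Kdm4c, against a median of 6 over all promoters. Over the wider windows of 1 kb either side of every annotated start, Suv39h1 and Suv39h2 stood near the top of the ranked genes in CpG count (92.3 and 92.1 percentile), and Kdm4c and Kdm3a near the bottom (6.58 and 14.5 percentile).

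First, the calls were compared. All 10 genes had a promoter peak in 12 of 12 libraries, so no gene of the list gained or lost its call in any group. Over the coding genes, 11944 had a promoter peak in at least 1 library and 10777 in all 12. Peaks inside the gene but away from any promoter were few. Ehmt1 had 2, 1 and 3 of them in scramble, none in the CPT1a knockout, 1, 0 and 1 with acetate, and 0, 1 and 0 in the KAT2a knockout. Kdm4b had 0, 3 and 0 in scramble and 0 to 2 in the other libraries. Kdm4c and Suv39h2 had none in any library.

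To set the genes side by side, the strongest promoter peak of each gene was ranked by its deposited fold enrichment among the 10777 genes of the same library, as a percentile in which 100 is the strongest. Ehmt2 stood highest over the 12 libraries (86.8 ± 13.5, SD, n = 12), then Ehmt1 (78.0 ± 16.4), Kdm4a (71.6 ± 8.88), Setdb2 (69.7 ± 9.39), Kdm3a (66.4 ± 9.83) and Suv39h2 (57.8 ± 16.7). Suv39h1 (51.2 ± 12.03), Kdm4c (50.2 ± 14.3), Setdb1 (35.1 ± 19.3) and Kdm4b (31.8 ± 12.5) followed. Each mean lay closer to those of its neighbours in this order than the larger SD of the pair. These SDs take in shifts between the groups, and whether neighbours differed was not tested. The order did not follow the enzyme class, since each class held genes in the upper and in the lower part. In scramble, the median rank was 61.0, 62.6 and 78.6 for the methyltransferase genes and 43.0, 48.9 and 48.4 for the demethylase genes. In the KAT2a knockout it was 54.3, 50.4 and 60.6 for the methyltransferase genes and 62.2, 67.8 and 73.2 for the demethylase genes, so that the demethylase genes stood higher in all 3 of these libraries. They stood lower in all 3 of scramble, and also in all 3 of the CPT1a knockout (60.6, 57.0 and 50.8, against 71.0, 58.2 and 78.9) and of the acetate group (53.3, 60.3 and 57.0, against 67.6, 63.8 and 69.4). No test was made of this difference between classes.

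**Figure D1:**
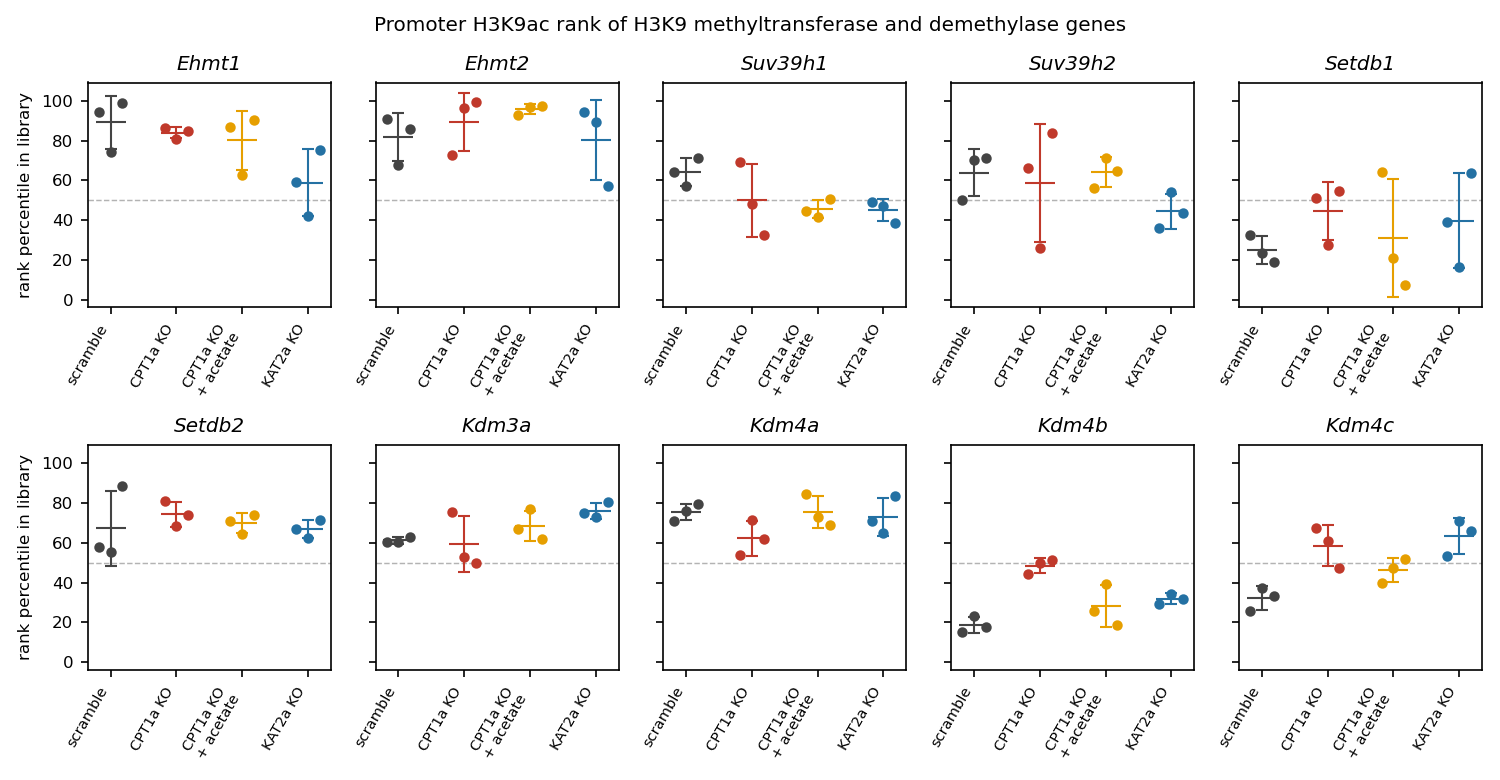
Rank percentile of the strongest promoter peak (y axis, 100 is the strongest of 10777 genes in that library) for each of the 10 genes in the 4 groups on the x axis. Points are single libraries, bars the mean and SD of 3, and the dashed line the middle rank of 50. Kdm4b, Kdm4c and Setdb1 have their lowest mean in scramble, and the 3 scramble values of Kdm4c (25.7 to 37.5) lie below all 9 others (39.9 to 70.8).

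Next, the ranks were compared between groups by limma over all 10777 genes, with Benjamini-Hochberg adjustment over all of them. Between CPT1a knockout and scramble, 1 of the 10 genes passed an adjusted p of 0.05, Kdm4b, and the share of all genes that passed was 10.0%. Kdm4b, a trimethyl-lysine 9 demethylase known as an oestrogen receptor and hypoxia target, ranked at 15.2, 23.1 and 17.5 in scramble and at 44.3, 49.8 and 51.6 in the CPT1a knockout. All 3 knockout libraries were above all 3 scramble libraries. The difference was 30.0 percentile points (SE 6.997, limma adjusted p = 0.0169). The difference stayed between 28.3 and 32.2 points with any 1 library left out, but it no longer passed with 1 library fewer in scramble, at 28.3 without replicate 1 (adjusted p = 0.0663) and 29.4 without replicate 3 (adjusted p = 0.0608). When the trend of rank with GC content was removed it was 21.2 (adjusted p = 0.0709).

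With acetate, Kdm4b ranked at 25.8, 39.6 and 18.8, and in the KAT2a knockout at 29.2, 34.6 and 31.9. The acetate values lay between those of scramble and of the CPT1a knockout, with the lowest inside the scramble range. Acetate against CPT1a knockout differed by -20.5 points (SE 6.997), with an unadjusted p of 0.0103 and an adjusted p of 0.404 by limma. KAT2a knockout against scramble differed by 13.3 points (SE 6.997, limma adjusted p = 0.294). The deposited fold enrichment of the strongest Kdm4b peak was 11.3, 13.5 and 11.3 in scramble, 25.6, 31.3 and 18.9 in the CPT1a knockout, 19.8, 20.5 and 17.0 with acetate and 23.5, 26.2 and 21.2 in the KAT2a knockout. These values are not scaled between libraries, whose median over promoters was 18.7 to 19.4 in scramble and 18.5 to 31.4 in the other 9.

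Kdm4c, which removes the same trimethyl mark and is amplified in some breast cancers, ranked at 25.7, 37.5 and 33.5 in scramble. It ranked at 67.4, 61.1 and 47.5 in the CPT1a knockout, at 39.9, 47.5 and 51.8 with acetate, and at 53.6, 70.8 and 65.9 in the KAT2a knockout. The 3 scramble values were below the other 9. This is 1 of 10 genes, beside 12.6% of all 10777 genes whose scramble ranks lay outside the other 9 on either side. The count was 3 without scramble replicate 2, and 2 without scramble replicate 3, CPT1a knockout replicate 1 or acetate replicate 3. Leaving out a library makes non-overlap easier for any gene, and no share of all genes stands beside these counts. The difference of scramble from the other 9 libraries was -23.9 points (exact permutation p = 0.00455, two-sided over 220 assignments and the smallest they can give, unadjusted, with 10 genes tested). In limma it did not pass, for scramble against the other 3 groups (SE 8.04, adjusted p = 0.0649), for CPT1a knockout against scramble (26.4 points, SE 9.84, adjusted p = 0.102) or for KAT2a knockout against scramble (31.2 points, SE 9.84, adjusted p = 0.0869). The window of Kdm4c is poor in GC (7.59 percentile), and once the GC trend was removed its difference was 37.1 points in the CPT1a knockout (limma adjusted p = 0.0280), 39.7 in the KAT2a knockout (adjusted p = 0.0393) and -34.0 in scramble against the others (adjusted p = 0.0133). In the same order, limma adjusted p was 0.0060, 0.0088 and 0.0047 by -log10 p. At equal calling depth it was 0.0278, 0.0264 and 0.0173. The shares of all genes that passed were 9.10%, 3.3% and 11.7% with GC removed. They were 31.9%, 21.6% and 35.5% by -log10 p and 18.3%, 9.65% and 20.55% at equal depth.

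Kdm3a and Kdm4a did not pass in any comparison. Kdm3a, a hypoxia-inducible demethylase, ranked at 60.3, 60.4 and 63.2 in scramble and at 74.9, 72.8 and 80.6 in the KAT2a knockout. All 3 knockout libraries were above scramble, with a difference of 14.8 points (SE 9.59, limma adjusted p = 0.405). Kdm4a ranged from 53.8 to 84.8 over all libraries, and its groups overlapped.

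Among the methyltransferase genes, Ehmt1 differed most between 2 groups. Its ranks were 94.2, 74.3 and 99.0 in scramble, 86.2, 80.8 and 84.8 in the CPT1a knockout, 87.1, 63.0 and 90.2 with acetate, and 59.3, 41.9 and 75.5 in the KAT2a knockout. The highest value in the KAT2a knockout lay just above the lowest in scramble. The difference was -30.3 points (SE 10.3, limma adjusted p = 0.110), and it passed at equal calling depth (-31.5, adjusted p = 0.0340) and by -log10 p (-29.4, adjusted p = 0.00302). Under those settings 9.65% and 21.6% of all genes passed in this comparison.

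Its partner gene Ehmt2 ranked at 90.8, 68.0 and 86.01 in scramble and between 57.4 and 99.3 in the other libraries. The 3 acetate values (93.1, 96.9 and 97.5) were above scramble (14.2 points, SE 9.92, limma adjusted p = 0.426), and the knockouts without acetate overlapped with scramble. Suv39h1 ranked at 64.1, 57.3 and 71.2 in scramble. Its ranks were 69.2, 48.1 and 32.8 in the CPT1a knockout, 44.7, 41.6 and 50.7 with acetate and 49.2, 46.9 and 38.7 in the KAT2a knockout. The scramble values were above 8 of the other 9 libraries, with CPT1a knockout replicate 1 inside their range, and the difference was 17.3 points (limma SE 8.71, adjusted p = 0.204). Suv39h2 and Setdb1 were spread over much of the scale within single groups, with Suv39h2 at 66.3, 26.0 and 83.8 in the CPT1a knockout and Setdb1 at 64.2, 21.2 and 7.31 with acetate. For Setdb1, the SD of the acetate group was 29.7 points, more than any difference between its group means. Setdb2 had the narrowest range of group means, 67.1 to 74.4.

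Between the other groups, 0 of the 10 genes passed. In KAT2a knockout against scramble the share of all genes was 4.41%, and 2 of the 10 had an unadjusted limma p under 0.05, beside 20.8% of all genes. In acetate against CPT1a knockout it was 0.0464% (5 genes), with 1 of the 10 at that unadjusted p beside 9.10% of all, and in acetate against scramble 5.56%, with 0 beside 22.0%. In scramble against the other 3 groups it was 11.6%, with 2 beside 28.5%. The counts of the list were near these backgrounds. The median absolute difference was 10.5 points for the 10 genes and 11.9 for all genes in the CPT1a knockout, and 14.7 and 10.1 in the KAT2a knockout. The 3 comparisons with scramble share the same 3 scramble libraries, so a like direction in them is not independent.

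**Figure D2:**
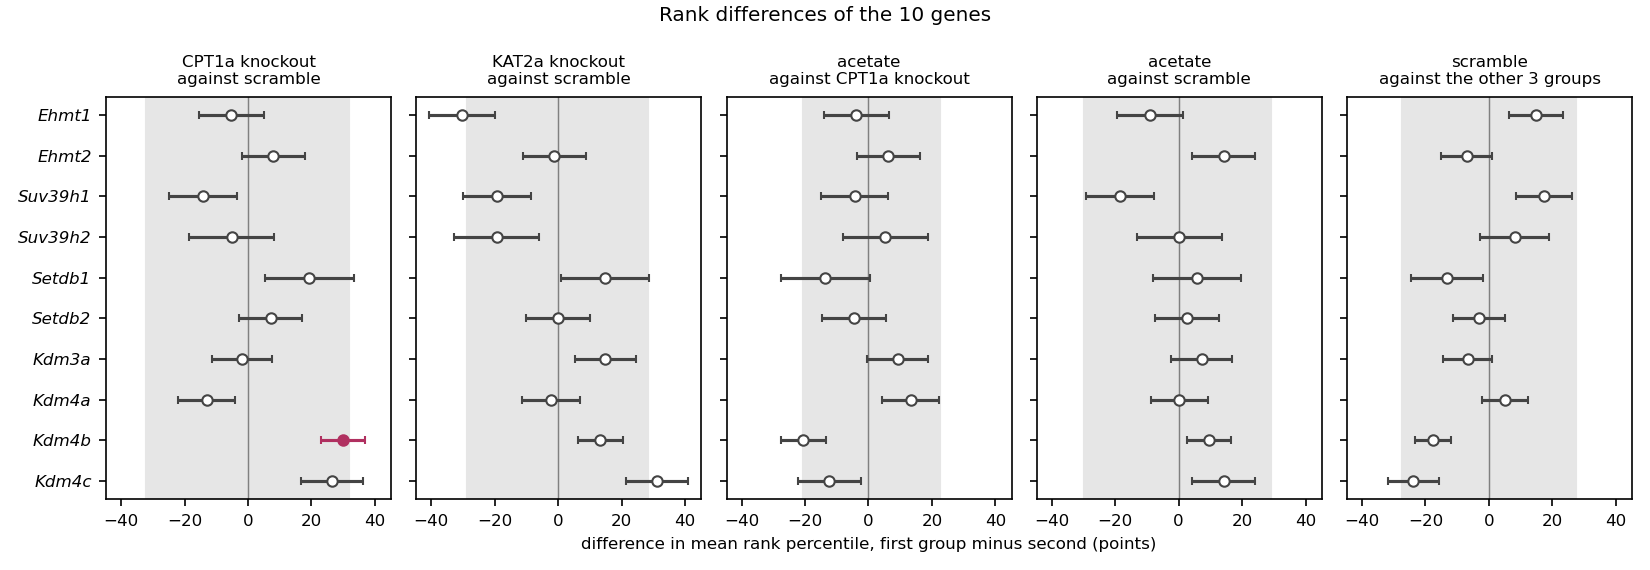
Difference in mean rank percentile, first group minus second (x axis, points), for the 10 genes in 5 comparisons. Bars are the limma standard error, the shaded band holds the central 90% of all 10777 genes, and the filled point passed an adjusted p of 0.05. Only Kdm4b in CPT1a knockout against scramble is filled (30.0 points), and most points lie inside the band.

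Kdm4c had the widest range of group means of rank (31.2 points). The 3 genes whose ranks followed it most closely over the 12 libraries were Trim3 (Pearson r = 0.914), Ccdc9 (r = 0.906) and Dusp28 (r = 0.875). Each had its lowest group mean in scramble, 33.4, 11.99 and 2.62, and Dusp28 reached 21.9 in the CPT1a knockout and 17.9 in the KAT2a knockout. The points share libraries and were picked out of all genes, so these values are a description.

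Then the widths of the promoter peaks were compared, summed over the peaks of a gene. The mean over the scramble libraries was above that of the other 9 for each of the 10 genes. For 5 genes (Ehmt2, Suv39h2, Setdb1, Setdb2 and Kdm3a) all 3 scramble libraries were above the other 9, beside 41.3% of all genes. Without scramble replicate 2 the count was 9. Leaving out a library makes non-overlap easier for any gene, and no share of all genes stands beside this count. Setdb1 spanned 3260, 3040 and 3463 bp in scramble, 1795, 1793 and 1553 bp in the CPT1a knockout, 2237, 2269 and 2146 bp with acetate, and 2116, 2237 and 2145 bp in the KAT2a knockout. The scramble promoter was thus wider by 1222 bp on average than the other 9, with the CPT1a knockout narrowest. The widest of all was Ehmt2, at 5402, 4223 and 4178 bp in scramble and 3049 to 3937 bp elsewhere, in a span that also holds the start of C2. Kdm4b showed the smallest difference, at 2687, 2648 and 2494 bp in scramble and 1489 to 3213 bp elsewhere (exact permutation p = 0.564). As a percentile within the library, the widths of 0 of the 10 genes lay outside the other 9, beside 17.1% of all genes, so the wider peaks went with the widths of all promoters in those lists.

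**Figure D3:**
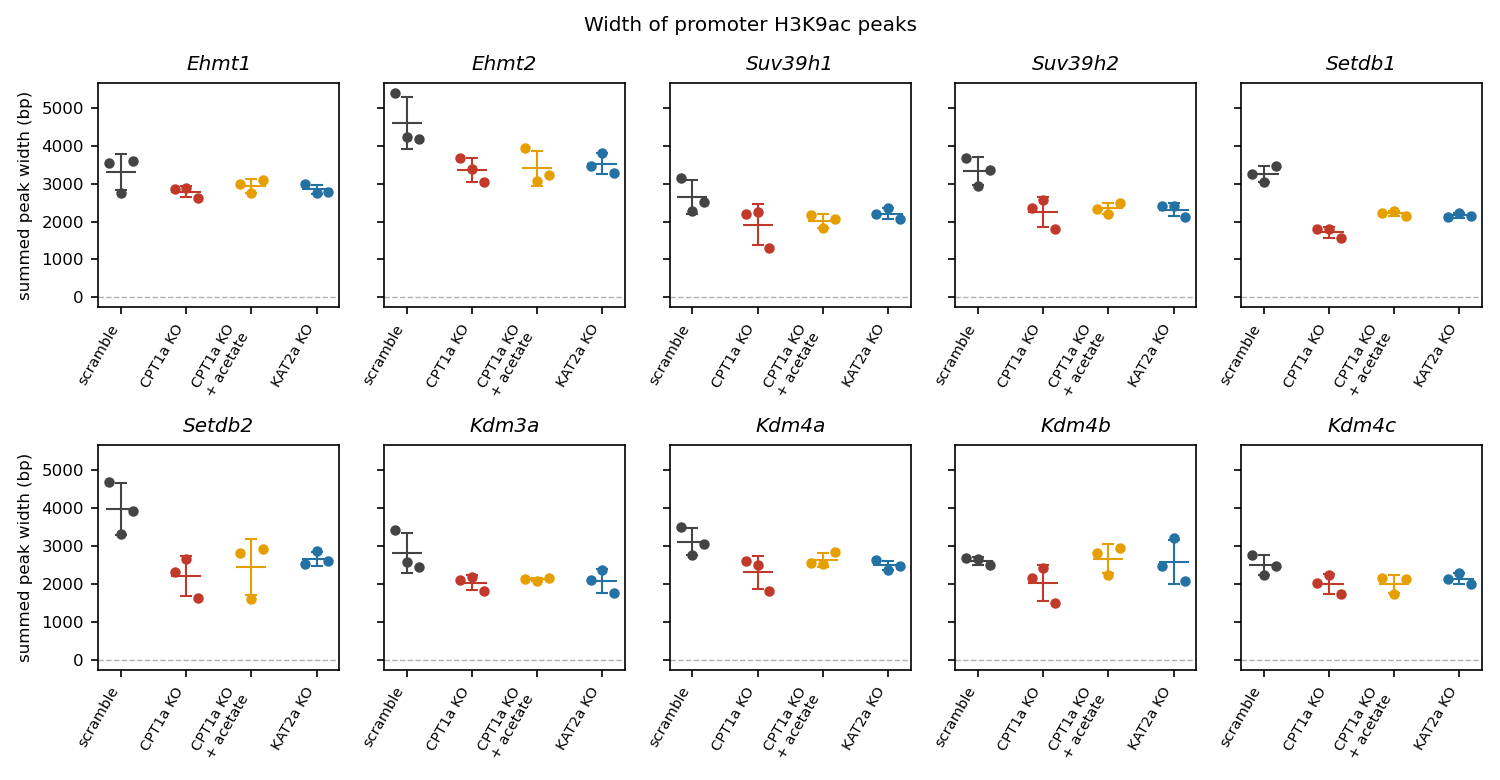
Summed width of the promoter peaks in bp (y axis, from 0) for the 10 genes in the 4 groups on the x axis. Points are single libraries and bars the mean and SD of 3. Scramble has the highest mean for 9 of the 10 genes, with a clear gap for Setdb1 (3040 to 3463 bp against 1553 to 2269 bp), while for Kdm4b the acetate group has it (2669 bp against 2610 bp).

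Last, the position of the summit was read, a measure outside the rule that chose the genes and one taken up after the lists had been seen. It is given in bp downstream of the principal start (the start of the APPRIS principal transcript nearest to the peak). In scramble the summits lay further into the gene for 6 of the 10 genes without overlap (Suv39h1, Suv39h2, Setdb1, Setdb2, Kdm3a and Kdm4b), beside 33.8% of all genes. The median over all 10777 genes was 519 to 564 bp in scramble and 298 to 355 bp in the other 9 libraries, so this shift was common to promoters.

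Kdm4b gave the clearest case. Its summit lay at 720, 680 and 737 bp in scramble, at 208, 231 and 199 bp in the CPT1a knockout, at 314, 196 and 197 bp with acetate and at 164, 204 and 199 bp in the KAT2a knockout. Scramble and the rest were separated by more than the range of either. Scramble replicates 2 and 3 and the third acetate library had nearly the same calling depth (1.87, 1.90 and 1.91), and their summits were at 680, 737 and 197 bp. Whether the position of the summit went with calling depth was not tested. Suv39h2 showed the largest mean shift, with summits at 1070, 913 and 918 bp in scramble and at 267 to 501 bp elsewhere. Setdb1 lay at 746, 712 and 850 bp in scramble and at 275 to 560 bp elsewhere, and Kdm3a at 481, 311 and 793 bp against 69 to 175 bp. Suv39h1 lay at 1173, 1015 and 1205 bp against 672 to 922 bp.

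At the shared promoter of Setdb2 and Cab39l the strongest summit changed sides. It lay on the Setdb2 side in all 3 scramble libraries (520, 427 and 428 bp). In the CPT1a knockout it lay on the Cab39l side in all 3 (-452, -457 and -433 bp), with acetate in 1 of 3 (363, 347 and -374 bp), and in the KAT2a knockout in 1 of 3 (-381, 284 and 312 bp). The principal start of Setdb2 lay inside a peak in every library. The other 4 genes overlapped between scramble and the rest, and Ehmt2 showed no shift beyond its spread (386 to 600 bp against 292 to 606 bp, exact permutation p = 0.627).

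**Figure D4:**
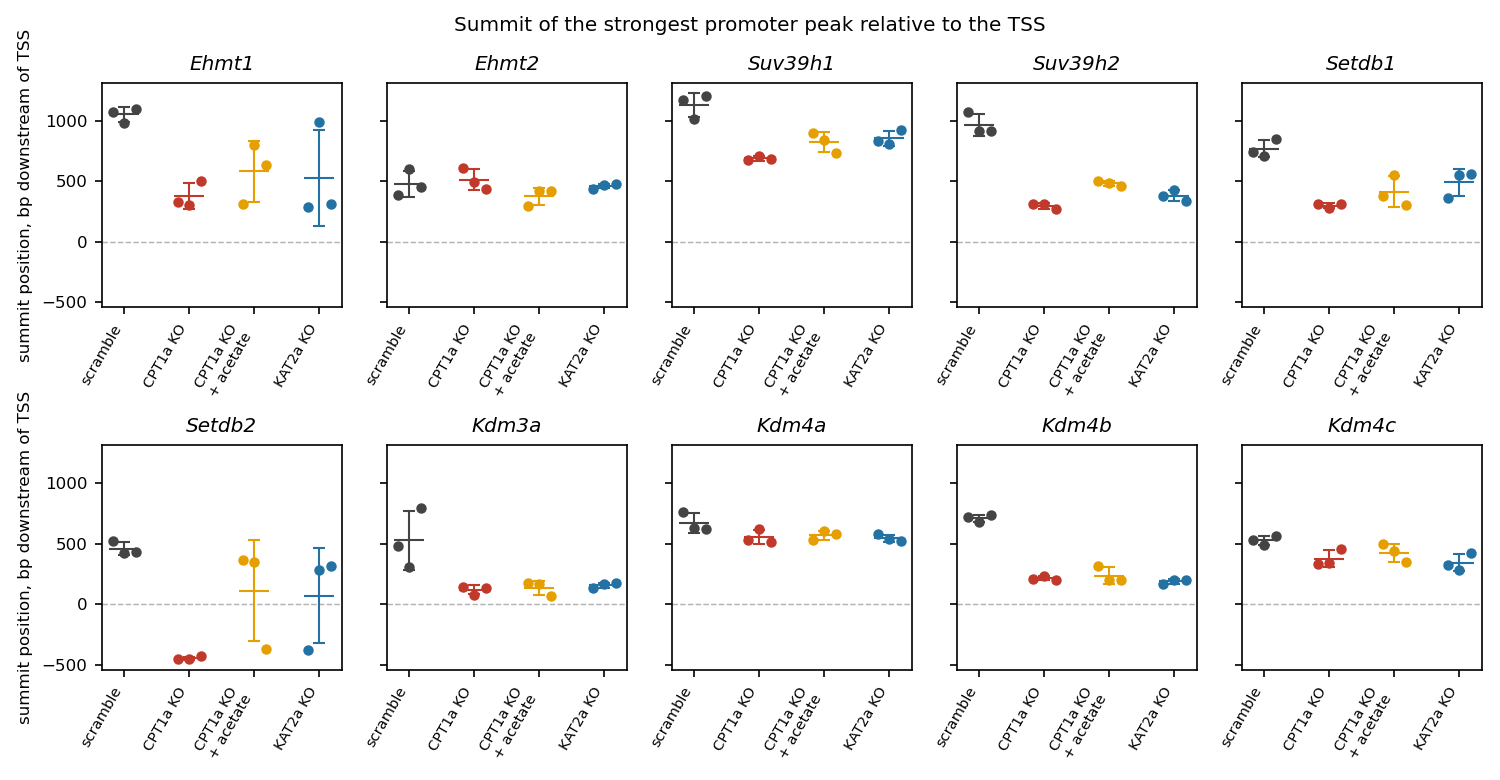
Position of the summit of the strongest promoter peak in bp downstream of the principal start (y axis, dashed line at the start) for the 10 genes in the 4 groups on the x axis. Points are single libraries and bars the mean and SD of 3. At Kdm4b scramble lies above all other libraries (680 to 737 bp against 164 to 314 bp), and the values of Setdb2 fall on both sides of the start.

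The start itself was left outside the peaks more often in scramble. A peak covered the principal start of 7, 6 and 5 of the 10 genes in the scramble libraries and of 7 to 10 in the others, beside 76.1%, 60.6% and 58.3% of all genes in scramble and 77.9% to 93.9% in the others. At Kdm4b the start was uncovered in all 3 scramble libraries and covered in the other 9. The gap there ran over 600, 603 and 593 bp, from 56325528 to 56326127 on chromosome 17 in scramble replicate 1, with a further peak on its upstream side. At Ehmt1 it was uncovered in scramble replicates 2 and 3, where 193 and 172 of the 250 bases printed above lay in no peak. All 250 lay in a peak in scramble replicate 1 and in the CPT1a and KAT2a knockouts. With acetate, 0, 54 and 0 of them lay in no peak. At Kdm4c it was uncovered in scramble replicates 1 and 3 and in the second acetate library, and 87, 94 and 183 of the printed bases lay in no peak in scramble. Of the other 9 libraries, 5 had all 250 of them in a peak and 4 left out 64 to 205. At Setdb1, 0, 169 and 0 of the printed bases lay in no peak in scramble and 23 to 160 did in 8 of the other 9 libraries, so scramble and the rest overlapped. Suv39h1 was the exception, with its principal start uncovered in 11 of 12 libraries. Another annotated start of the gene, at 8074258, lay inside its strongest peak in every library. The summits lay 170 to 703 bp downstream of that start.

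**Figure D5:**
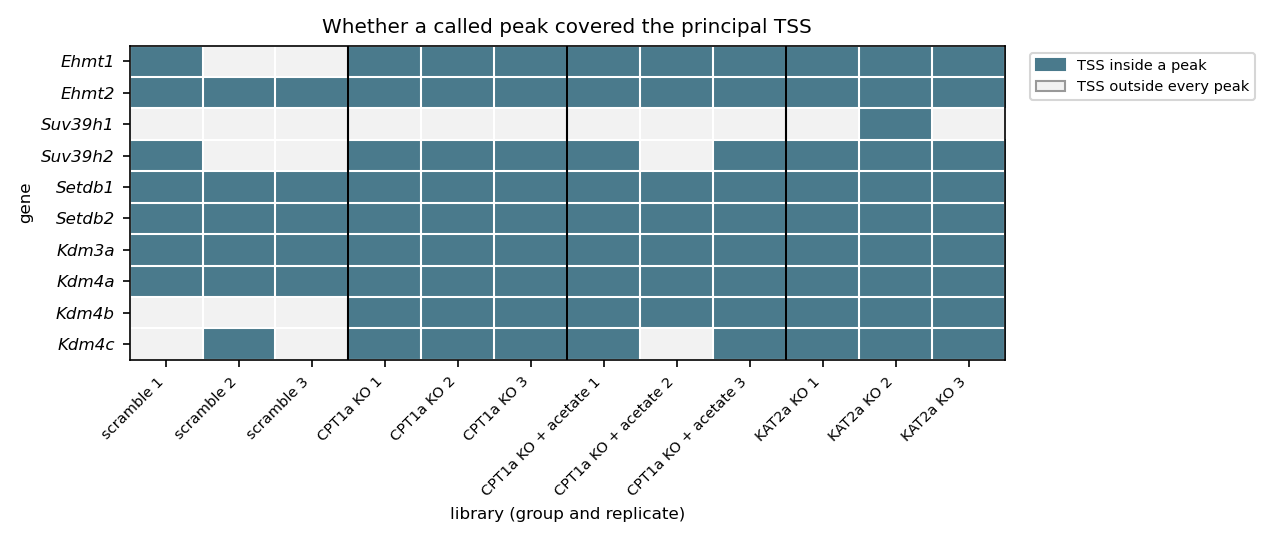
Whether a called peak covered the principal start of each of the 10 genes (rows) in each of the 12 libraries (columns, in groups of 3 replicates). Dark cells are covered starts. Kdm4b is uncovered in the 3 scramble libraries alone, and Suv39h1 is covered in 1 library.

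To see whether neighbours in the pathway behaved alike, 3 other lists were counted. Of 12 further genes for lysine 9 methyltransferases and demethylases, 11 had a promoter peak in all libraries and Prdm16 in none. In CPT1a knockout against scramble, 1 of the 11 rose and 0 fell (limma, adjusted p under 0.05), beside 10.0% of all genes that passed. That gene was Kdm1a, the flavin-dependent demethylase LSD1, which ranked at 57.2 ± 5.59 (SD, n = 3) in scramble and at 90.9 on average in the CPT1a knockout (33.7 points, SE 8.76, limma adjusted p = 0.0264). Riox2, a ribosomal oxygenase, fell in acetate against scramble (-19.2 points, SE 4.95, limma adjusted p = 0.0379). It was the only gene of the 11 that passed there, beside 5.56% of all genes. Of the 11, only Kdm1a (lower in scramble) and Riox2 (higher) passed in scramble against the other 3 groups, beside 11.6% of all genes.

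Of 14 readers and cofactors of methylated lysine 9, 12 were ranked, Atf7ip had a peak in 10 libraries and Cdyl2 in none. In CPT1a knockout against scramble 2 rose (Zfp644 and Fam208a, the latter named after its value was seen) and 1 fell (Cbx5), which is 3 of 12 beside 10.0% of all genes. Zfp644, which recruits the EHMT1-EHMT2 complex with WIZ, rose by 41.2 points (SE 9.65, limma adjusted p = 0.0171). The genes Cbx5 and Cbx3 encode HP1 proteins, which bind trimethylated lysine 9. Cbx5 ranked at 89.98 to 93.0 in scramble and at 36.6 to 84.6 in the other 9 libraries, and the CPT1a knockout differed by -34.9 points (SE 9.77, limma adjusted p = 0.0353). Cbx3 ranked at 97.8 to 99.3 in scramble and at 37.1 to 94.4 elsewhere, and it fell by 46.6 points in the KAT2a knockout (SE 7.96, limma adjusted p = 0.00686), the only one of the 12 that passed there, beside 4.41% of all genes.

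Of 21 genes for enzymes of other H3 lysines, Kdm6b was called in 2 libraries and the rest in all 12. Kdm5a, a lysine 4 demethylase, was the only one of the 20 ranked genes that passed in any comparison, beside 10.0% of all genes in the CPT1a knockout, 4.41% in the KAT2a knockout and 11.6% in scramble against the other 3 groups. It ranked at 88.6 to 94.5 in scramble and at 12.6 to 78.9 elsewhere, and it fell by 44.9 points in the CPT1a knockout (SE 13.2, limma adjusted p = 0.0437) and by 57.9 in the KAT2a knockout (SE 13.2, adjusted p = 0.0262). In acetate against CPT1a knockout, 0 genes of the 3 lists passed.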

How the data were processed

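H3K9ac ChIPmentation libraries of 4T1 spheroids were analysed from 12 peak lists, 1 per library, with no pooling by the authors. According to the study's methods, reads were aligned to mm10 (GRCm38) with BWA and duplicates were removed with Picard, whereas the submitters' processing notes name Bowtie2, SAMtools, deepTools and MACS2. The catalogue number of the antibody also differs between the labels and the methods. Column 7 of the deposited lists is the fold enrichment of a peak, a ratio of its summit to the local background of its own library. The deposited -log10 p and -log10 q give the significance of each peak in its own list, and the deposited score was not used. None of these values was scaled between libraries by the authors, and the fly chromatin described in the methods was not used here, so total H3K9ac could not be compared.

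The 10 genes, the other lists and the tests were chosen with earlier results of these data known. Autosomal peaks and those on X were used. A peak was assigned to a gene if it overlapped by 1 bp the window 1 kb either side of any start of the gene (GENCODE vM21). The fold enrichment of the strongest promoter peak was converted to a rank percentile among the 10777 coding genes that every library called. Ranks were fitted by group with limma 3.58.1 (R 4.3.3, empirical Bayes with trend), with Benjamini-Hochberg adjustment over all genes. Scramble was set against the other 9 libraries for single values by a two-sided exact permutation test. Read depth is not given in the sources used here, so the calling depth was recovered from fold enrichment and p under the formulas of MACS2, and these steps were tested on simulated data. All 10 genes are named, and of the other lists up to 4 genes that passed in scramble against the other 3 groups, beside Fam208a, which was added after its value was seen. For the gene with the widest range of group means, the 3 with the highest Pearson r are given. Replicate numbers did not pair the libraries (r of deviations -0.0617 to 0.0672 over 18 pairs). Alternatives covered the measure ranked, the window, the summit rule, the q threshold, GC content, normal scores, equal calling depth, a replicate block and each library left out. Python 3.11.15 was used for the rest.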

Additional observations from a re-analysis of the deposited data

How the results depend on the processing

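The count of 10 genes called in all 12 libraries was 9 with the summit in the window, where Ehmt1 was left out of all tests, and 10 under the other alternatives run. The count of 0 in acetate against CPT1a knockout was the same under all of them. The 1 gene past the rank test in CPT1a knockout against scramble became 2 by -log10 p and 2 at equal calling depth, and ranged from 0 to 1 when a library was left out. In KAT2a knockout against scramble the 0 became 2 by -log10 p, 1 with the GC trend removed and 2 at equal depth. The shares of all genes there were 21.6%, 3.3% and 9.65%. In acetate against scramble the 0 became 1 by -log10 p, beside 23.7% of all genes. In scramble against the other 3 groups the 0 became 3 by -log10 p, 1 with GC removed and 2 at equal depth. The shares of all genes there were 35.5%, 11.7% and 20.55%. The count was 1 without CPT1a knockout replicate 1 (13.2% of all genes) or replicate 3 (11.6%), and 0 without any other library. The share of all genes that passed in the CPT1a knockout moved too, to 31.9% by -log10 p and 18.3% at equal depth. It fell to 4.52% without scramble replicate 1, 4.68% without scramble replicate 3 and 5.87% without CPT1a knockout replicate 3. It rose to 10.4% without KAT2a knockout replicate 3. In scramble against the others it was 4.54% and 5.07% without those scramble libraries. In the KAT2a knockout it was 1.77% and 2.06% without them and 1.299% to 1.995% without a KAT2a library, and in acetate against scramble 2.42% and 2.85%, and 1.40% to 2.14% without an acetate library. Without CPT1a knockout replicate 1 it rose, to 5.16% in the KAT2a knockout, 6.73% in acetate against scramble and 13.2% in scramble against the others. Scramble ranks outside the other 9 were found for 3 genes by -log10 p, beside 22.4% of all genes, and for 1 to 3 without a library. Scramble widths were outside for 3 at equal depth (38.5% of all genes), 0 as percentiles (17.1%) and 5 to 9 without a library. The counts without a library have no share of all genes beside them. With a replicate block, though the numbers did not pair the libraries, the 5 counts were 1, 0, 0, 0 and 0, as without the block. The cause of these changes was not tested.

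Of 1045 values of single genes under the alternatives, 973 kept direction and call, 17 gained a call, 3 lost it and 52 changed sign, none of which passed the test. By -log10 p, these were, in CPT1a knockout against scramble, Suv39h2 (9.40), Setdb2 (-10.9) and Kdm3a (6.22), in the KAT2a knockout Ehmt2 (2.97), in acetate against CPT1a knockout Ehmt2 (-0.0402) and Suv39h2 (-5.52), in acetate against scramble Setdb1 (-1.74), Setdb2 (-11.4) and Kdm4a (-1.99), and in scramble against the others Suv39h2 (-2.25) and Setdb2 (13.2). With the summit in the window, acetate against scramble gave Suv39h2 (-1.14) and Kdm4a (-0.844). With GC removed, the CPT1a knockout gave Ehmt2 (-3.56) and Kdm3a (9.10), the KAT2a knockout Setdb2 (9.23), acetate against scramble Suv39h2 (-8.56) and Kdm4a (-2.63), and scramble against the others Ehmt2 (1.01). Normal scores gave Ehmt2 in the KAT2a knockout (0.0463) and Suv39h2 in acetate against scramble (-0.000421). At equal depth, the CPT1a knockout gave Suv39h2 (4.84), Setdb2 (-1.66) and Kdm3a (4.33), acetate against CPT1a knockout Suv39h2 (-1.37), acetate against scramble Setdb1 (-0.995), Setdb2 (-5.48) and Kdm4a (-0.379), and scramble against the others Setdb2 (5.72).

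With each library left out, the differences in CPT1a knockout against scramble ranged from -17.7 to 11.2 for Suv39h2 and -9.89 to 2.84 for Kdm3a. In the KAT2a knockout they ranged from -8.18 to 10.3 for Ehmt2, -6.20 to 10.6 for Setdb2 and -7.53 to 1.89 for Kdm4a. In acetate against CPT1a knockout they ranged from -2.07 to 11.2 for Ehmt2, -13.0 to 5.23 for Suv39h1, -11.0 to 17.9 for Suv39h2 and -8.90 to 4.73 for Ehmt1. In acetate against scramble they ranged from -6.65 to 4.10 for Suv39h2, -3.40 to 13.4 for Setdb2, -4.38 to 3.54 for Kdm4a and -10.9 to 17.6 for Setdb1, and in scramble against the others from -14.0 to 2.85 for Setdb2.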
